A study of Homo sapiens with 17 samples.

Results

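Levels of 10 genes that mark glial lineages and glioma cell states were examined, of the 60664 genes in the table: *PDGFRA*, *OLIG1*, *OLIG2* and *SOX10* of the oligodendrocyte lineage, the stem-like genes *SOX2* and *NES*, the astrocyte-lineage genes *SOX9* and *GFAP*, and the mesenchymal-type genes *VIM* and *CD44*. They were chosen by symbol, and each symbol matched 1 Ensembl gene. RNA-Seq was measured in SF8628, an established cell line from a diffuse midline glioma (DMG) with the H3.3 K27M mutation, which the study grew as a monolayer in medium with serum. The cells received the solvent DMSO for 24 h, 1 μM AZD5153 for 24 h, DMSO for 48 h or 1 μM AZD5153 for 48 h, and each of the 4 groups had 3 libraries. AZD5153 occupies the bromodomains of BET proteins, which bind acetylated histones at active enhancers and promoters. All groups carry the same mutation and come from 1 cell line, so the values describe this line only.

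DMGs arise in the pons and other midline structures, and their cells are commonly described as resembling oligodendrocyte precursors, astrocytes or mesenchymal cells. In oligodendrocyte precursors, PDGF binds the receptor PDGFRα, and the transcription factors OLIG1, OLIG2 and SOX10 set and maintain the lineage. SOX2 keeps neural stem and progenitor cells undifferentiated, SOX9 takes part in the onset of gliogenesis, and nestin (*NES*), vimentin (*VIM*) and GFAP are intermediate filament proteins found in progenitors, in immature or mesenchymal cells and in astrocytes, respectively. CD44 is a receptor for hyaluronan in the extracellular matrix and is often used as a marker of the mesenchymal state of glioma.

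Of the 10 genes, 4 were barely read, which here means a mean under 10 normalized counts over the 12 libraries, where a normalized count is a gene's number of reads over the size factor of the library. These were the 4 genes of the oligodendrocyte lineage. *OLIG1* and *OLIG2* had 0 reads in 12 of 12 libraries. With 246172823 reads on genes in all, 3 reads correspond to 0.0122 RPM (reads scaled to 1000000 reads on genes) over the pooled libraries and to 0.110 to 0.190 RPM in a single library, which is the level that a count of 0 allows, for counting error only. *PDGFRA* had 33 reads in 12 libraries together, 1 to 6 in each, or 0.134 RPM over the pooled libraries. *SOX10* had 13 reads in 5 of 12 libraries, and 7 of these came from a single library, DMSO 24 h replicate 3. *OLIG1* and *OLIG2*, defining transcription factors of the oligodendrocyte lineage, were therefore not detectable at this depth in a line labelled as DMG, with or without AZD5153.

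The few reads fell on these genes in both treatments. In DMSO, *PDGFRA* had 3, 3 and 1 reads in the libraries of 24 h and 6, 4 and 4 in those of 48 h. In AZD5153, it had 1, 2 and 1 reads at 24 h and 2, 3 and 3 at 48 h. *SOX10* had 0, 0 and 7 reads in DMSO and 0, 0 and 1 in AZD5153 at 24 h. At 48 h it had 0 reads in each DMSO library and 3, 1 and 1 in AZD5153. No test was made on counts of this size. *PDGFRA* (chr4:54229280-54298245 in GENCODE 44 on GRCh38) shares 16.1% of its exon bases with another gene on the same strand, which was listed at 0, and the other 8014 exon bases are its own. *SOX10* (chr22:37970686-37987422) shares 5.39% with *POLR2F*, an RNA polymerase subunit gene on the opposite strand with a mean of 876 normalized counts. How reads on these shared bases were counted depends on the strand setting, which is not given in the sources used here. *OLIG2* (chr21:33025935-33029196) shares no exon base with another gene of the table, and *OLIG1* (chr21:33070141-33072413) shares 8.84% with an opposite-strand gene that was listed at 0.

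The other 6 genes were read in every library, at levels that differed widely per kilobase of exon, the scale on which different genes can be compared. Over the 12 libraries, *VIM* had a mean of 3487 normalized counts per kilobase, at percentile 99.2 of the 15599 genes tested. *CD44* followed with 641 normalized counts per kilobase (percentile 92.3), then *SOX9* with 250.3 (77.6) and *NES* with 240.0 (76.6). *SOX2* lay in the middle of the tested genes at 76.1 normalized counts per kilobase (percentile 49.5), and *GFAP*, the classical astrocyte filament gene, near the bottom at 3.12 (percentile 3.69). In both DMSO groups the order was *VIM*, *CD44*, *NES*, *SOX9*, *SOX2* and *GFAP*, with no overlap between the libraries of neighbouring genes. With AZD5153 at 24 h, *NES* (136 normalized counts per kilobase) and *SOX9* (131) overlapped. With AZD5153 at 48 h *SOX9* (282) stood above *NES* (97.7). The 4 barely read genes stood below *GFAP* in each group.

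**Figure D1:**
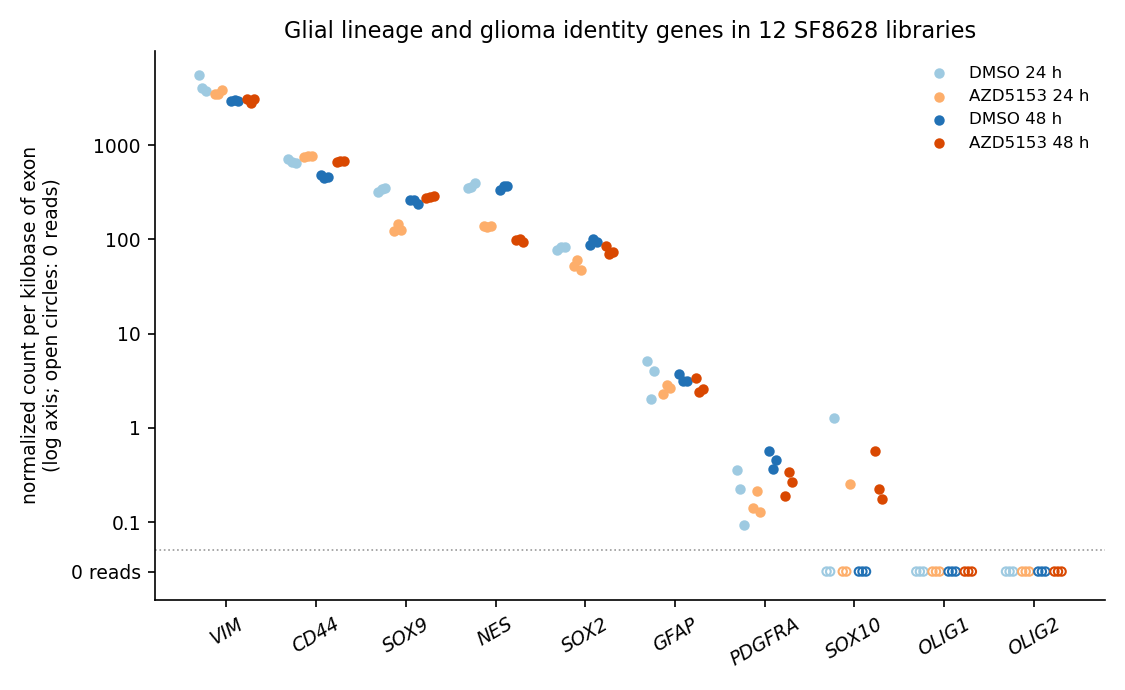
Normalized count per kilobase of exon (log axis) of the 10 genes, with 1 point for each of the 12 libraries, coloured by group; open circles on the bottom line mark 0 reads. *VIM* lies highest and *GFAP* lowest of the 6 tested genes, and *OLIG1* and *OLIG2* have 0 reads in all 12 libraries.

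The libraries held 15759148 to 27335220 reads on genes (median 20737337). All genes whose mean reached 10 normalized counts were tested with limma on log2(normalized count + 1) in 1 fit of the 4 groups, and p-values were adjusted over all 15599 genes by the Benjamini-Hochberg procedure; a gene was called at an adjusted p under 0.05. Differences are given on this log2 scale, with AZD5153 minus DMSO or 48 minus 24 h. The labels do not say whether the 3 libraries of a group came from separate cultures, so the p-values measure the spread between these libraries, which may be technical. The 5 comparisons share libraries, for example the DMSO libraries of 48 h enter the treatment effect at 48 h and the change with time in DMSO. On the second principal component of all tested genes (8.48% of the variance), DMSO 24 h replicate 1 stood at 44.6 and the other libraries of its group at 17.4 and 16.6, and values without it are given beside results of *SOX9*, *GFAP* and *VIM*.

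At 24 h, 4 of the 10 genes fell with AZD5153 (*NES*, *SOX9*, *SOX2* and *VIM*), 1 rose (*CD44*), 1 did not pass the test (*GFAP*) and 4 were barely read. Calls were common over all genes, as 34.6% of the genes tested were called lower and 33.9% higher at 24 h. At 48 h 2 of the 10 fell (*NES* and *SOX2*) and 1 rose (*CD44*), where 33.9% of all genes were called lower and 33.1% higher. These shares are of genes tested, and of the 6 of the 10 genes that were tested, 5 were called at 24 h and 3 at 48 h. Whether counts over so few genes differ from the shares over all genes was not tested. When libraries were scaled to equal totals, the split over all genes at 48 h moved from 5159 higher and 5294 lower to 3896 higher and 6511 lower. The median of all genes then moved to -0.121 at 24 h and -0.168 at 48 h. Quantile normalization moved them the other way, to 5800 higher and 4853 lower at 48 h, with medians of 0.065 at 24 h and 0.087 at 48 h. These are bulk libraries, in which fewer cells of a type and less RNA per cell cannot be told apart.

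**Figure D2:**
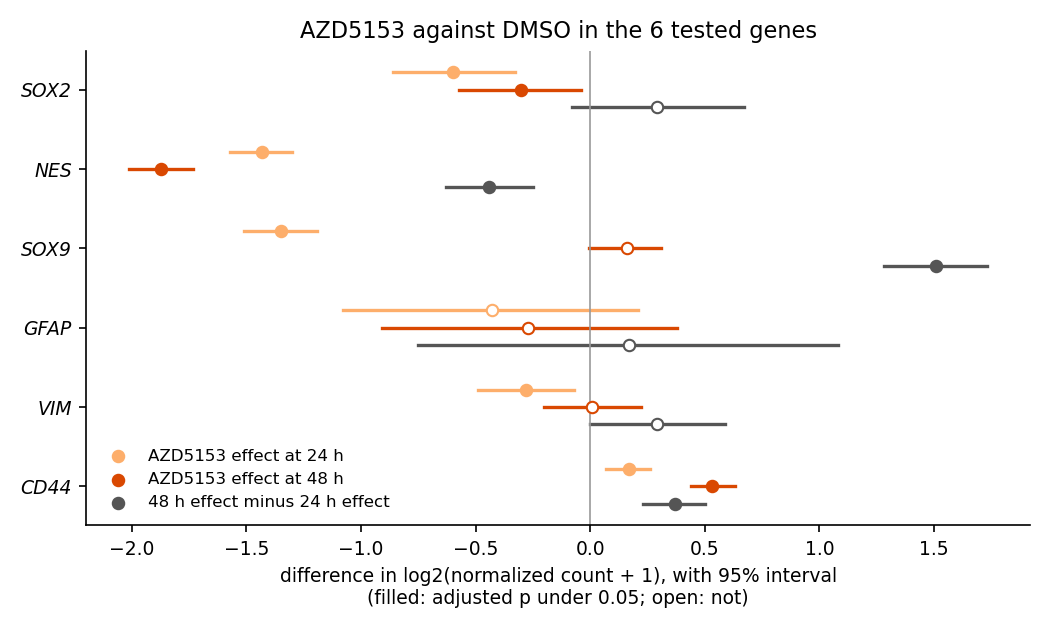
Difference between AZD5153 and DMSO in log2(normalized count + 1) for the 6 tested genes, with 95% intervals, at 24 h, at 48 h and as the 48 h effect minus the 24 h effect; filled points have an adjusted p under 0.05. *NES* is lower at both times, *SOX9* is lower at 24 h (-1.35) and its interval at 48 h includes 0, and *CD44* is higher at both times.

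Promoters of *NES* and *SOX2* (both lower) and *CD44* (higher) are shown because these 3 genes were called at both times. The call of *SOX2* at 48 h was close to the threshold and held in 13 of 23 alternatives. They are RefSeq promoters (GRCh38.p14), and the set used here was matched to 5 of the 10 genes. Each run covers 250 bases before and 50 bases from the annotated start, 5′ to 3′ on the gene's strand, at chr1:156677358-156677657 (minus strand) for *NES*, chr3:181711675-181711974 (plus strand) for *SOX2* and chr11:35138921-35139220 (plus strand) for *CD44*. Capitals mark the GC box GGGCGG and the CCAAT box CCAAT, each searched on both strands.
NES: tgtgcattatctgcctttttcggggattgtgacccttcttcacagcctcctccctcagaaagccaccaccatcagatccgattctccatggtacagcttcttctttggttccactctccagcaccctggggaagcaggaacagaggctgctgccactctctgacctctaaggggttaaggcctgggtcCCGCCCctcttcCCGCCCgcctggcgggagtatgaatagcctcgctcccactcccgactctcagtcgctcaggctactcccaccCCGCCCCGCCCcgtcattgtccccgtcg
SOX2: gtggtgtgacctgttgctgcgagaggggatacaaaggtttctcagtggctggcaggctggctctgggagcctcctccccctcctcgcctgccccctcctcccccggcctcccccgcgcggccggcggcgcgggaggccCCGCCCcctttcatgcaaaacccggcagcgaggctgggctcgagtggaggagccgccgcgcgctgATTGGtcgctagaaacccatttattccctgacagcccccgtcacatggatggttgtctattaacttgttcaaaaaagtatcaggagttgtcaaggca
CD44: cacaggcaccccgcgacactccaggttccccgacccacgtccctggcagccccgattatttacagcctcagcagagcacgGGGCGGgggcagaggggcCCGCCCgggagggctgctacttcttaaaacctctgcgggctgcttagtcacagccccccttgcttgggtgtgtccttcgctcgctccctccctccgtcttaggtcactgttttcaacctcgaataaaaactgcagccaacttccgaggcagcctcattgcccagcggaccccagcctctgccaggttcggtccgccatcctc

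The *NES* promoter held 4 matches to the GC box, of which the last pair overlap by 1 base, and none to the CCAAT box. The *SOX2* promoter held 1 GC box and 1 CCAAT box, and the *CD44* promoter 2 GC boxes and no CCAAT box. Of 35116 promoters of the same length, 45.0% held a GC box and 34.6% a CCAAT box. A search on both strands for TATAAA (in 11.5% of all promoters), the AP-1 site TGANTCA (7.71%) and the SOX motif AACAAT (10.1%) found no match in these 3 windows. The share of G and C was 60.3% in *NES*, 63.3% in *SOX2* and 63.3% in *CD44*, against a median of 58.7% over all promoters. These matches describe the letters of the windows, and binding was not measured here.

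*NES* (ENSG00000132688, chr1:156668763-156677407) showed the lowest counts in AZD5153 relative to DMSO of the 6 genes at both times. In DMSO it had 1947, 1999 and 2205 normalized counts at 24 h and 1872, 2057 and 2050.4 at 48 h. With AZD5153 it had 760.2, 752 and 761 normalized counts at 24 h and 543, 562 and 527 at 48 h. All AZD5153 libraries lay below all DMSO libraries, and the AZD5153 libraries of 48 h lay below those of 24 h. The difference was -1.43 at 24 h (SE 0.0641, limma adjusted p = 1.7e-11), so that the mean in AZD5153 was 37.0% of that in DMSO. At 48 h it was -1.87 (limma adjusted p = 7.8e-13), or 27.3% of DMSO. Both calls held in 23 of 23 alternatives, with differences from -1.56 to -1.38 at 24 h and from -2.04 to -1.84 at 48 h.

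The AZD5153 effect on *NES* was larger at 48 than at 24 h, with a difference of -0.44 (95% interval -0.63 to -0.25, limma adjusted p = 0.0026). In AZD5153, *NES* fell by 0.48 on the log2 scale from 24 to 48 h (limma adjusted p = 4.7e-05). In DMSO the change with time was -0.04 (95% interval -0.18 to 0.10), and the libraries of both times overlapped. Over the 12 libraries, the genes with the pattern most like *NES* were *HDGF*, a heparin-binding growth factor gene, with a root mean square difference of 0.0943 log2 units from the centred values of *NES*, and *OAS3*, an interferon-induced gene (0.103), among 10960 genes compared. *HDGF* had means of 14034, 5087, 12468 and 3879 normalized counts in DMSO and AZD5153 at 24 h and in DMSO and AZD5153 at 48 h.

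*SOX2* (ENSG00000181449, chr3:181711925-181714436) was lower with AZD5153 at 24 h, and its difference at 48 h was close to the threshold. Normalized counts were 192, 208 and 209 in DMSO and 133, 152 and 119 in AZD5153 at 24 h. At 48 h they were 219, 252 and 238 in DMSO and 215, 177 and 183 in AZD5153. The AZD5153 libraries lay below the DMSO libraries of the same time, although at 48 h the highest of them (215) came close to the lowest DMSO library (219). At 24 h the difference was -0.60 (SE 0.125, limma adjusted p = 5.4e-04), and it was called in 23 of 23 alternatives, with -0.38 under quantile normalization as the smallest. At 48 h it was -0.30 (limma adjusted p = 0.044) and was called in 13 of 23. It lost the call without DMSO 48 h replicate 2 (-0.25, limma adjusted p = 0.14) or replicate 3 (0.091). The same held without AZD5153 48 h replicate 2 (-0.25, 0.14) or replicate 3 (-0.27, 0.11). The call was also lost without DMSO 24 h replicate 2 (0.054) or AZD5153 24 h replicate 1 (0.05), which share the estimate of spread. Other losses were under quantile normalization (-0.04, limma adjusted p = 0.78), scaling by 7 stably expressed genes (-0.27, 0.086), no minimum mean (0.069) and a replicate block (-0.30, 0.058).

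The effects on *SOX2* at the 2 times were not shown to differ (difference 0.29, 95% interval -0.08 to 0.67, limma adjusted p = 0.25). Within AZD5153, *SOX2* rose by 0.51 from 24 to 48 h (limma adjusted p = 0.0057), with all libraries of 48 h above those of 24 h, and in DMSO the change was 0.22 (limma adjusted p = 0.19). *SOX2* lies within the long noncoding gene *SOX2-OT*, whose exons do not overlap its own and which had a mean of 7.22 normalized counts. The genes with the most similar pattern were *TMUB2*, a ubiquitin-like transmembrane protein gene (root mean square difference 0.0881 log2 units), and *SV2A*, a synaptic vesicle protein gene (0.108).

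*SOX9* (ENSG00000125398, chr17:72121020-72126416) was low with AZD5153 at 24 h and not at 48 h. Normalized counts were 1234, 1356 and 1364 in DMSO and 485, 569 and 496 in AZD5153 at 24 h. At 48 h they were 1027, 1025 and 932 in DMSO and 1083, 1092 and 1146 in AZD5153. The AZD5153 libraries lay below all DMSO libraries at 24 h and above those of the same time at 48 h. The difference was -1.35 at 24 h (SE 0.0748, limma adjusted p = 2.0e-10), with a mean of 39.2% of DMSO. It was called in 23 of 23 alternatives, and was -1.40 without DMSO 24 h replicate 1. At 48 h it was 0.16 (95% interval -0.0037 to 0.31, limma adjusted p = 0.078). It was called in 2 of 23 alternatives, a fit of the groups compared (limma adjusted p = 0.017) and without DMSO 24 h replicate 1 (0.04), and it was -0.02 with equal totals.

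The 2 effects on *SOX9* differed by 1.51 (95% interval 1.28 to 1.73, limma adjusted p = 2.2e-07), which was called in 22 of 22 alternatives. From 24 to 48 h *SOX9* rose by 1.10 in AZD5153 (2.14-fold, limma adjusted p = 4.3e-08) and fell by 0.41 on the log2 scale in DMSO (limma adjusted p = 5.9e-04). Without DMSO 24 h replicate 1, the difference between the effects was 1.55 and the change with time in DMSO was -0.45. *CDC25B*, a phosphatase gene that promotes entry into mitosis, and *EPHA5*, an ephrin receptor gene, had the most similar patterns (root mean square differences 0.164 and 0.165 log2 units). *EPHA5* had means of 444 and 191 normalized counts in DMSO and AZD5153 at 24 h, and 422 and 403 at 48 h. The antisense gene *SOX9-AS1* does not overlap exons of *SOX9* and had a mean of 7.13 normalized counts.

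*GFAP* (ENSG00000131095, chr17:44903159-44916937) was read at a low level, and its groups overlapped. In DMSO the normalized counts were 57.5, 22.8 and 45.5 at 24 h and 42.3, 35.5 and 35.6 at 48 h. In AZD5153 they were 25.5, 31.7 and 29.4 at 24 h and 38.3, 27.2 and 29.1 at 48 h. The DMSO libraries of 24 h spanned the whole range of the AZD5153 libraries. The difference was -0.43 at 24 h (95% interval -1.08 to 0.21, limma adjusted p = 0.22) and -0.27 at 48 h (-0.91 to 0.38, limma adjusted p = 0.46). *GFAP* had 19 to 51 reads per library. The value at 24 h depended on single libraries, with -0.81 (limma adjusted p = 0.016) without DMSO 24 h replicate 2 and -0.16 without replicate 1. *GFAP* shares 19.9% of its exon bases with opposite-strand genes, of which *CCDC103* had a mean of 1.44 normalized counts.

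*VIM* (ENSG00000026025, chr10:17228241-17237593) was the most highly read of the 10 genes in each library and fell with time in DMSO. Normalized counts in DMSO were 28352, 20900.1 and 19355 at 24 h and 15309.9, 15500.0 and 15170.4 at 48 h. In AZD5153 they were 17915, 18011 and 19727 at 24 h and 15855, 14454 and 16040.4 at 48 h. DMSO 24 h replicate 1 was far above the other libraries, and the groups of 24 h overlapped. The AZD5153 effect at 24 h was -0.28 (SE 0.0983, limma adjusted p = 0.018), -0.12 (limma adjusted p = 0.028) without that library, and -0.69 under quantile normalization. The call was lost without AZD5153 24 h replicate 1 (limma adjusted p = 0.062) or replicate 2 (0.059) and in a fit of the 2 groups alone (0.069). At 48 h the difference was 0.01 (95% interval -0.20 to 0.22, limma adjusted p = 0.93), but -0.28 (limma adjusted p = 0.048) under quantile normalization.

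In DMSO, *VIM* fell by 0.56 on the log2 scale from 24 to 48 h (limma adjusted p = 4.2e-04), and by 0.39 without DMSO 24 h replicate 1. In AZD5153 the change with time was -0.26 (limma adjusted p = 0.055), with all libraries of 48 h below those of 24 h. This fall was called in 5 of 23 alternatives, namely edgeR (adjusted p = 0.04), DESeq2 (0.042), limma in a fit of the groups compared (9.3e-06) and limma without DMSO 24 h replicate 1 (1.4e-05) or replicate 3 (0.017). The treatment effects at the 2 times were not shown to differ (0.29, 95% interval -0.0028 to 0.59, limma adjusted p = 0.14; 0.40 and 0.017 without DMSO 24 h replicate 3, and 0.13 and 0.13 without replicate 1). *VIM* shares 24.6% of its exon bases with opposite-strand genes, mainly *VIM-AS1*, which had a mean of 17.1 normalized counts. The most similar patterns were those of *RBM27*, an RNA-binding protein gene (root mean square difference 0.0674 log2 units), and *DNAJC10*, a chaperone gene of the endoplasmic reticulum (0.0757).

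*CD44* (ENSG00000026508, chr11:35138882-35232402) was higher with AZD5153, by more at 48 h than at 24 h. In DMSO the normalized counts were 7024, 6622 and 6490.3 at 24 h and 4836, 4518 and 4588 at 48 h. In AZD5153 they were 7419.9, 7569 and 7603 at 24 h and 6612, 6776 and 6789 at 48 h. The AZD5153 libraries lay above the DMSO libraries at each time, and the DMSO libraries of 48 h were the lowest of all. The difference was 0.17 at 24 h (SE 0.0444, limma adjusted p = 0.0035), and it was 0.04 (limma adjusted p = 0.40) with equal totals and 0.10 (0.061) under quantile normalization. At 48 h it was 0.53 (1.45-fold, limma adjusted p = 2.6e-08), and from 0.36 to 0.56 over 23 alternatives, each of which called it.

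The effect on *CD44* at 48 h exceeded that at 24 h by 0.37 (95% interval 0.23 to 0.50, limma adjusted p = 6.0e-04). From 24 to 48 h *CD44* fell by 0.53 on the log2 scale in DMSO (limma adjusted p = 5.1e-07) and decreased by 0.16 in AZD5153 (limma adjusted p = 0.011). The change in AZD5153 was -0.08 (limma adjusted p = 0.26) when libraries were scaled by 7 stably expressed genes, and its call was lost without AZD5153 48 h replicate 1 (-0.15, 0.05). *CD44* shares 1.54% of its exon bases with the opposite-strand genes *CD44-AS1* and *CD44-DT*, which had means of 10.00 and 8.34 normalized counts, and their part in its values was not tested. *EIF5*, a translation initiation factor gene (root mean square difference 0.0445 log2 units), and *GFM1*, a mitochondrial elongation factor gene (0.0514), had the patterns most like it.

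**Figure D3:**
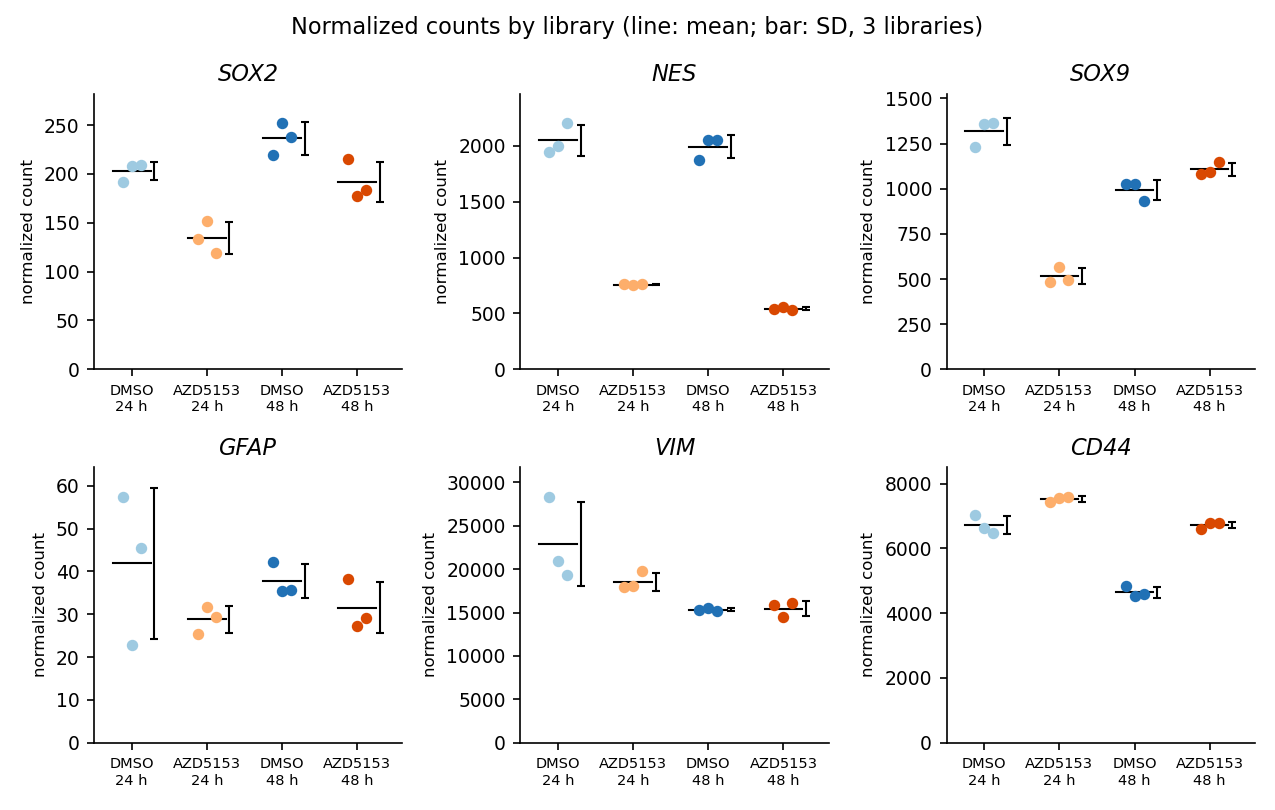
Normalized counts of the 6 tested genes in each of the 12 libraries (points), with the mean of each group (line) and its SD (bar, 3 libraries), on axes that start at 0. *SOX9* is low in AZD5153 at 24 h (485 to 569) and not at 48 h (1083 to 1146), and the DMSO libraries of 48 h are the lowest for *CD44*.

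The effect of AZD5153 differed between the times in 3 of the 6 tested genes (*NES*, *SOX9* and *CD44*), where 24.5% of all genes tested were called for this difference. Time in DMSO changed 3 of the 6 (*SOX9*, *VIM* and *CD44*, all lower at 48 h; 35.7% of all genes were called). Time in AZD5153 changed 4 of the 6, of which *SOX2* and *SOX9* were higher and *NES* and *CD44* lower at 48 h (29.7% of all genes were called).

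Of 16 other genes of oligodendrocyte precursors, 8 were barely read, and of these *NKX2-2* and *TNR* had 0 reads in every library. *CSPG4*, which encodes the NG2 proteoglycan of precursors and pericytes, was well read, with means of 2086 normalized counts in DMSO and 441 in AZD5153 at 24 h, and 2933 and 864 at 48 h. With AZD5153 it fell at both times, with differences of -2.23 at 24 h and -1.76 at 48 h (limma adjusted p = 4.8e-12 and 7.6e-11). *VCAN*, a matrix proteoglycan gene, was lower as well, with 227 and 51.8 normalized counts at 24 h (-2.11). *BCAN*, another matrix proteoglycan gene, rose from 10.2 to 98.0 normalized counts at 24 h (3.21) and from 32.3 to 125 at 48 h (1.96), and *PTPRZ1*, a receptor phosphatase gene, rose by 1.44 and 2.93; both were named after their values were seen. Of the 8 tested genes, 3 rose and 4 fell at 24 h and 2 rose and 4 fell at 48 h, with a median of -0.74 and -0.76 against 0.00 over all genes tested. *PTPRZ1* reached the minimum mean of 10 through the AZD5153 libraries only, so that its rise is no independent count. Of the other 7 genes 2 rose and 4 fell at 24 h and 1 rose and 4 fell at 48 h (medians -1.48 and -1.15). For this and the lists that follow, the shares over all genes were 33.9% higher and 34.6% lower at 24 h and 33.1% higher and 33.9% lower at 48 h.

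Genes of mature oligodendrocytes gave no single direction. *MOG* and *ERMN* had 0 reads in every library, and 6 of 12 listed genes were tested. At 24 h 1 rose and 3 fell, and at 48 h 1 rose and 4 fell (medians -0.31 and -0.92). *CLDN11* reached the minimum mean through the DMSO libraries only, and without it 1 rose and 2 fell at 24 h and 1 rose and 3 fell at 48 h (medians -0.16 and -0.34). *MBP*, the gene of myelin basic protein, had means of 206 and 45.4 normalized counts in DMSO and AZD5153 at 24 h and 326 and 37.4 at 48 h, and the differences were -2.16 and -3.10. *CNP*, a myelin-associated phosphodiesterase gene that many cells express, rose by 0.32 and 0.38.

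Several defining markers of astrocytes were barely read. *AQP4*, the water channel of astrocytes, had reads in 2 of 12 libraries, *ALDH1L1* in 2 of 12, and *GJB6* and *MLC1* in none. Of the 12 tested genes out of 18 listed, 3 rose and 7 fell at 24 h and 3 rose and 6 fell at 48 h (medians -0.48 and -0.77). *HOPX*, *FABP7* and *NDRG2*, which all fell, reached the minimum mean through DMSO only, and of the other 9 genes 3 rose and 4 fell at 24 h and 3 rose and 3 fell at 48 h (medians -0.32 and -0.10). *CLU*, which encodes clusterin, rose from 1929.7 to 8523 normalized counts at 24 h (2.15) and from 2714 to 11461 at 48 h (2.08). *GLUL*, the gene of glutamine synthetase, rose by 0.86 and 0.90. *GJA1*, the connexin 43 gene, fell from 5931 to 1356 normalized counts at 24 h (-2.13) and from 5609 to 931 at 48 h (-2.59). *APOE*, a lipid transport gene, fell by 0.47 on the log2 scale at 24 h, a call that was lost without DMSO 24 h replicate 2 or 3 or AZD5153 24 h replicate 2 or 3 (limma adjusted p from 0.055 to 0.16). At 48 h it fell from 3899 to 920.3 normalized counts (-2.08).

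**Figure D4:**
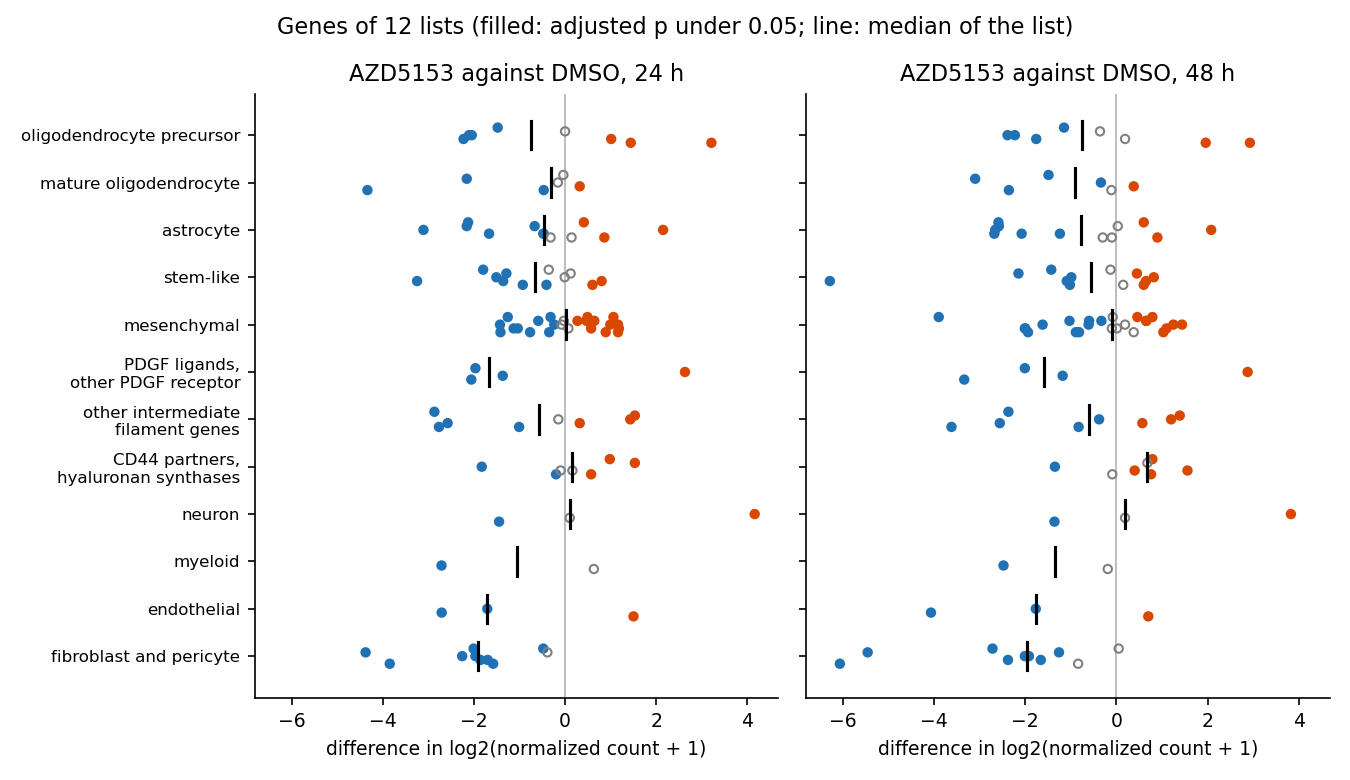
Difference between AZD5153 and DMSO in log2(normalized count + 1) at 24 h (left) and 48 h (right) for the tested genes of 12 lists, with 1 point per gene; filled points have an adjusted p under 0.05 (orange higher, blue lower) and black lines mark the medians. The fibroblast and pericyte list lies lowest as a whole, with medians of -1.91 and -1.97, and the mesenchymal list is spread to both sides, with medians of 0.02 and -0.09.

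Among the other stem-like genes, 12 of 18 were tested, and 2 rose and 7 fell at 24 h and 4 rose and 6 fell at 48 h (medians -0.67 and -0.56). *PAX6*, a neural progenitor transcription factor gene, fell from 593 to 209 normalized counts at 24 h (-1.51) and from 540.4 to 271 at 48 h (-0.99). *SALL2*, a zinc finger transcription factor gene, fell as well (-1.80 and -1.43). *NOTCH1*, a receptor gene that maintains progenitors, rose by 0.80 and 0.65, and *SOX11* by 0.60 and 0.60. *HES1*, a Notch target gene named here after its values were seen, had means of 149 and 15.3 normalized counts in DMSO and AZD5153 at 24 h and 220.0 and 1.98 at 48 h. It reached the minimum mean through DMSO only. Of the other 11 genes 2 rose and 6 fell at 24 h and 4 rose and 5 fell at 48 h (medians -0.41 and -0.13). *PROM1*, which encodes the stem cell antigen CD133, had reads in 3 of 12 libraries.

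The mesenchymal genes, with which *VIM* and *CD44* are commonly grouped, were read in nearly all cases, as 24 of 25 were tested. At 24 h 11 rose and 10 fell, and at 48 h 8 rose and 11 fell. *TIMP1*, a metalloproteinase inhibitor gene, rose from 1637 to 3644 normalized counts at 24 h (1.16) and from 1417 to 3380.1 at 48 h (1.25). *S100A10* rose by 0.99 and 1.44. *CHI3L1*, a secreted glycoprotein gene and widely used mesenchymal glioma marker, had 1893 and 787 normalized counts at 24 h (-1.26) and 7017 and 470.0 at 48 h (-3.90). *EMP3*, a membrane protein gene, fell at both times (-1.42 and -1.94). The list had large changes in both directions beside the smaller ones of *VIM* and *CD44*.

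Of the 5 listed genes for the PDGF ligands and the other PDGF receptor, 4 were tested, and the ligand gene *PDGFB* was barely read (reads in 2 of 12 libraries). *PDGFRB*, the receptor gene of pericytes and fibroblasts, had means of 3217 and 821 normalized counts in DMSO and AZD5153 at 24 h (-1.97) and of 4383 and 1089 at 48 h (-2.01). The ligand gene *PDGFA* fell from 223 to 53.1 normalized counts at 24 h (-2.06) and from 238 to 22.5 at 48 h (-3.34). The ligand gene *PDGFD* rose from 41.5 to 261 (2.63) and from 38.1 to 283 (2.88). Of 4 tested genes of this list, 3 fell and 1 rose at both times (medians -1.67 and -1.59).

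The other intermediate filament genes, relatives of *NES*, *VIM* and *GFAP*, moved both ways. Of 8 tested genes, 3 rose and 4 fell at 24 h and 3 rose and 5 fell at 48 h (medians -0.58 and -0.60). *DES* and *PRPH*, which fell, reached the minimum mean through DMSO only, and of the other 6 genes 3 rose and 2 fell at 24 h and 3 rose and 3 fell at 48 h, with medians of the other sign (0.09 and 0.09). *LMNA*, the gene of nuclear lamins A and C, rose from 25786 to 74175 normalized counts at 24 h (1.53) and from 20299 to 53165 at 48 h (1.39). *SYNM*, the gene of synemin, a filament protein that assembles with vimentin, rose by 1.43 and 1.20. The B-type lamin genes fell, *LMNB1* from 4847 to 662 normalized counts at 24 h (-2.87) and *LMNB2* from 8589.7 to 4230.5 (-1.01). The neurofilament gene *NEFL* had 0 reads in every library.

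Of the genes around CD44, 7 of 10 were tested, and 3 rose and 2 fell at 24 h and 4 rose and 1 fell at 48 h (medians 0.16 and 0.68). *EZR* encodes ezrin, which links CD44 to actin, and it rose from 7848 to 11673 normalized counts at 24 h (0.57) and from 6174 to 10425 at 48 h (0.76). The hyaluronidase gene *HYAL2* rose by 0.98 and 0.79. It shares 11.5% of its exon bases with the same-strand gene *TUSC2* (mean 1150.0 normalized counts), whose part in these values was not tested. *HMMR*, the other hyaluronan receptor gene of the list, fell from 1511 to 423 normalized counts at 24 h (-1.83) and was lower at 48 h too (-1.35).

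Markers of other cell types were read to unequal extents. Of 10 myeloid genes, *AIF1*, *TYROBP*, *C1QA* and *C1QB* had 0 reads in every library, and of the 2 tested *CSF1R* fell by 2.73 at 24 h and *CD14*, named after its values were seen, did not pass the test at either time (0.63 and -0.19). Of 7 endothelial genes, *CDH5* and *FLT1* had 0 reads, and of the 3 tested 1 rose and 2 fell at both times. *PECAM1* fell from 289 to 43.3 normalized counts at 24 h (-2.71), and *ESAM*, an adhesion molecule gene, rose from 37.5 to 106. Of 10 neuronal genes, *STMN2* and *DCX* had 0 reads and 3 were tested. *TUBB3*, a neuronal tubulin gene that shares 21.3% of its exon bases with another gene listed at 0, rose from 22.6 to 402 normalized counts at 24 h (4.16). *SNAP25*, a synaptic gene, fell (-1.45 at 24 h and -1.36 at 48 h), and *SYT1* did not pass the test at either time (0.10 and 0.19). *ESAM*, *SNAP25* and *SYT1* were named after their values were seen.

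In the fibroblast and pericyte list, 10 of 10 genes were read and tested. Its summed level was 64459 to 79777 normalized counts in the DMSO libraries and 21325 to 22043 in the AZD5153 libraries of 24 h, and 85704 to 92265 and 28272 to 28506 at 48 h. Most of this sum came from the collagen genes *COL1A1* and *COL1A2*, named after their values were seen. In DMSO and AZD5153 at 24 h, *COL1A1* had means of 49766 and 15187 normalized counts, and *COL1A2* of 15416 and 3209. At 24 h 0 rose and 9 fell, and at 48 h 0 rose and 8 fell, by limma at an adjusted p under 0.05 (medians -1.91 and -1.97), where 34.6% and 33.9% of all genes were called lower at the 2 times. *COL3A1*, *DCN* and *ACTA2* reached the minimum mean through DMSO only, and of the other 7 genes 6 fell at each time (medians -1.86 and -1.92). *FAP*, a surface protease gene of activated fibroblasts, had means of 689 and 46.6 normalized counts at 24 h (-3.85) and 1007 and 14.1 at 48 h (-6.07). *LUM*, the gene of the matrix proteoglycan lumican, fell at both times (-1.86 and -2.38). The summed level of the list fell in the same libraries as *NES*, *CSPG4* and *PDGFRB*, and its part in those results was not tested. *PDGFRB* is itself in the list. Sums of other lists moved both ways. At 48 h the mesenchymal list had 750125 to 790936 normalized counts in DMSO and 271634 to 279618 in AZD5153. The astrocyte list had 19889 to 20268 in DMSO and 24453 to 24881 in AZD5153.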

How the data were processed

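RNA-Seq of 12 SF8628 libraries was analysed, in 4 groups given by the labels, and the 5 CUT&RUN samples were not analysed here. The authors aligned paired reads to hg38 with STAR, counted them with HTSeq-count, which by default leaves out reads that hit more than 1 gene, and scaled them with DESeq2; versions, annotation and strand setting are not given in the sources used here. The deposited values are a signal, gene counts divided by a size factor, and 100% were whole reads (tolerance 0.01), so depth was recovered. The authors' own fold changes and p-values were not used. Entries that name no gene took 0 rows. The 10 genes and the 12 gene lists were chosen with earlier results of these data known. Barely read genes had a mean under 10. From each list, at most 2 higher and 2 lower genes are named, those with the largest mean effect that had a mean of 100 or more and were called in 1 direction at both times. Genes most like a member have the smallest root mean square difference of centred log2 values. limma 3.58.1 (R 4.3.3, eBayes with trend, pseudocount 1, 8 residual degrees of freedom) was also run on simulated data. These had few changed genes and the same added spread for every gene, unlike the data here, and no conclusion is drawn from them. Alternatives were pseudocounts of 0.5 and 10, a minimum mean of none and 100, 3 scalings (equal totals, quantile normalization and the 7 stably expressed genes in the study's methods), a replicate block, a fit of the groups compared, edgeR 4.0.16 and DESeq2 1.42.0 on the recovered reads, and leaving out each library. List counts over genes with a mean of 10 in both treatments were added after the data were seen. Replicates differed by more than sampling noise (chi-square per degree of freedom 2.12 to 25.6).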

Additional observations from a re-analysis of the deposited data

Results flagged for a closer look

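The effect of AZD5153 differed between 24 and 48 h, by the interaction of treatment and time in limma, in 3 of the 6 tested genes. For *NES* the effect at 48 h minus that at 24 h was -0.44 (adjusted p = 0.0026), for *SOX9* 1.51 (adjusted p = 2.2e-07) and for *CD44* 0.37 (adjusted p = 6.0e-04). Each was called in 22 of 22 alternatives, in which it ran from -0.49 to -0.37 for *NES*, from 1.41 to 1.58 for *SOX9* and from 0.28 to 0.44 for *CD44*. The change of the DMSO libraries between the times is part of each difference, and it was -0.41 for *SOX9* and -0.53 for *CD44*, both called, and -0.04 for *NES*, which did not pass the test (adjusted p = 0.66). Of all genes tested, 24.5% were called for the same interaction.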

How the results depend on the processing

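The counts of called members and of all called genes stayed within 1.5 times the reported ones in 228 of 228 recomputed values. Reversed signs were seen where the reported difference had not passed the test. With equal totals, the 48 h effect was -0.02 for *SOX9* and -0.16 for *VIM*, and the change of *NES* with time in DMSO was 0.01. Under quantile normalization, the 48 h effect was 0.09 for *GFAP* and -0.28 for *VIM* (adjusted p = 0.048), and the change of *NES* with time in DMSO was 0.03. With edgeR the 48 h effect on *VIM* was -0.0025. Leaving out 1 library at a time gave -0.02 to 0.06 for this effect, -0.08 to 0.01 for *NES* with time in DMSO, and for *GFAP* -0.11 to 0.54 for the difference between times, -0.43 to 0.22 with time in DMSO and -0.03 to 0.21 with time in AZD5153. The cause was not tested. The replicate numbers did not pair the libraries, as the deviations of same-numbered libraries correlated at -0.15 to 0.04 and 4 of 12 libraries correlated best with their own number. With a replicate block, 5 members were called at 24 h and 2 at 48 h, since *SOX2* at 48 h had -0.30 and an adjusted p of 0.058, and 10526 and 10290 genes were called in all. Depth limits the 4 barely read genes and *GFAP*. Of the list counts, 32 of 1104 recomputed values moved by more than 1.5 times, most often with a minimum mean of 100, which tests fewer genes.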
